A study of Mus musculus with 7 samples.

Results

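NAD is the coenzyme of the cell's redox reactions and also the substrate that sirtuins, poly(ADP-ribose) polymerases (PARPs) and CD38 break down. The RNA of 10 enzymes of NAD salvage and NAD use was measured in contused spinal cord of mice labelled Bmal1-/- and of wild type (WT) mice. The enzymes are Nampt, Nmnat1, Nmnat2, Nmnat3, Nmrk1 and Naprt, which make NAD from nicotinamide, nicotinamide riboside or nicotinic acid, and Sirt1, Sirt3, Parp1 and Cd38, which consume it. They were chosen by gene symbol as the clock-linked salvage route and its consumers, with no measured value used, and they are 10 of the 21965 genes counted. RNASeq libraries came from 3 mice labelled Arntl Knockout (Arntl is the gene symbol of Bmal1), of which 2 were female and 1 male, and from 4 WT mice, of which 2 were female and 2 male, each mouse giving 1 library. All 7 mice, aged 8 to 10 weeks, were on a C57BL/6 background (C57Bl/6J in the study's methods) and received a moderate contusion at the T9 level (50 kdyn), and a 5 mm segment around the epicenter was taken at dpi 3, that is 3 days post-injury. The Bmal1-/- line carries the germline allele Arntltm1Bra, made in 129 cells and moved to C57BL/6, so that all cells of the animal carry it. Its homozygotes came from crosses of heterozygotes, while most WT mice were bought and not littermates. No uninjured mouse and no other time point was among these samples. By the study's methods the tissue was collected in the same morning hours, so other times of day were not sampled.

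In most tissues NAD is made mainly by salvage of nicotinamide, the product of its own breakdown. NAMPT, the rate-limiting enzyme, makes nicotinamide mononucleotide (NMN), and the NMNAT enzymes turn NMN into NAD in the nucleus (NMNAT1), in the cytosol, Golgi and axon (NMNAT2) and in mitochondria (NMNAT3). In liver and other tissues CLOCK and BMAL1 bind E-boxes of Nampt, NAD then varies over the day, and the NAD-dependent deacetylase SIRT1 acts back on the clock, which is why this route is called clock-linked. PARP1 uses NAD to mark broken DNA, and CD38, on the surface of immune and glial cells, hydrolyses NAD and NMN.

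E-boxes (CACGTG), the motif that CLOCK and BMAL1 bind, were searched on both strands in the 300 bases around the starts of the enzymes, 250 before and 50 after, in RefSeq sequences of GRCm38.p6. 9 of the 10 enzymes had 11 such windows, Naprt having none. The starts are those of RefSeq, and the starts used for Nampt, Sirt1 and Nmnat2 lie inside the gene ranges given below. CACGTG stood in the windows of 2 enzymes, Sirt1 and Parp1, and in 7.15% of the 32851 windows of all genes. The variant CACGTT stood in the window of Nmnat2 only among these enzymes and in 4.68% of all windows. AGGTCA, the core letters bound by the clock factors ROR and REV-ERB, stood in the windows of Nampt and Nmnat3 and in 16.3% of all windows. TTANGTAA, the letters bound by DBP and its relatives, stood in none of the 11 windows and in 2.32% of all. The 4 windows shown are those of the rate-limiting enzyme, of both genes with an E-box and of Nmnat2, each 5′ to 3′ on the strand of the gene, with the matches in capitals.
Nampt, chr12:32820085-32820384, plus strand, AGGTCA beginning 151 bases before the start: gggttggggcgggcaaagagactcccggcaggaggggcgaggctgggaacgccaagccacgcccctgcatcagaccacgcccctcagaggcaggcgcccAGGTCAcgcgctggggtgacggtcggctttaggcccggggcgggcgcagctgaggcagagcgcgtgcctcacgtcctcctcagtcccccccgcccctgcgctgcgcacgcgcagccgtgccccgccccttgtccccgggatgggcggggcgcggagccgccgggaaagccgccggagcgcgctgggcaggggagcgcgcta
Sirt1, chr10:63338986-63339285, minus strand, CACGTG beginning 115 and 43 bases before the start: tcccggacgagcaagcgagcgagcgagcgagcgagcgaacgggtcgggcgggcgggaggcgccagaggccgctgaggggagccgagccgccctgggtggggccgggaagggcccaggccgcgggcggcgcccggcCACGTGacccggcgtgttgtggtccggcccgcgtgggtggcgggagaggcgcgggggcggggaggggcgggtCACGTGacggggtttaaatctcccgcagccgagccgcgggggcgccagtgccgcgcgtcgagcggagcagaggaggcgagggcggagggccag
Parp1, chr1:180568641-180568940, plus strand, CACGTG beginning 49 bases before the start: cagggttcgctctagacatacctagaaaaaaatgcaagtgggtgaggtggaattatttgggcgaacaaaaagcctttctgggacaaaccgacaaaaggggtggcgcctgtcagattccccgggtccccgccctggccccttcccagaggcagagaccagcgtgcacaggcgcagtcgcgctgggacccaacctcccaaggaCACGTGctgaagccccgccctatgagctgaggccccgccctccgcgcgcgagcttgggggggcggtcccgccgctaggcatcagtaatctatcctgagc
Nmnat2, chr1:152954851-152955150, plus strand, CACGTT at base 30 from the start: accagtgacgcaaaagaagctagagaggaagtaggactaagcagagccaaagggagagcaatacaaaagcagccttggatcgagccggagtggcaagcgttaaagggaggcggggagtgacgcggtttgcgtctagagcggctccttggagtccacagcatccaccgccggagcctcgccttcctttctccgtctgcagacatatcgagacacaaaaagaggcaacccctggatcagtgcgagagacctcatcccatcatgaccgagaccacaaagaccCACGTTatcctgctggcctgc
A match is a stretch of letters and was not tested as a binding site, and the windows leave out most of the introns and distal elements. The CACGTT of Nmnat2 lies after the start and follows an atg in the same reading frame, so it can be coding sequence.

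The targeted gene was read first. Arntl (ENSMUSG00000055116, chr7:113207465-113314126) had 24.1, 24.2 and 22.5 counts per 1000000 counts of the library (CPM) in the libraries labelled Bmal1-/- and 14.7, 15.3, 11.9 and 13.4 CPM in WT. The groups did not overlap, and the log2 fold change of the labelled over the WT libraries was 0.77 (SE 0.10), with an adjusted p of 0.0155 in the quasi-likelihood test of edgeR (Benjamini-Hochberg adjusted). Arntl RNA was therefore higher, not lower, in the libraries labelled Bmal1-/-, and its count covers all exons, so reads of the deleted exons cannot be told from the rest. This call was lost without any 1 of the 3 labelled libraries, with adjusted p of 0.102, 0.052 and 0.06, and without WT replicate 4, at 0.0554. The BMAL1 target genes Nr1d1 and Dbp fell in the labelled libraries, with log2 fold changes of -2.51 and -1.85 (adjusted p = 0.000456 and 0.00328), and Cry1 rose by 1.58 (adjusted p = 0.000456), 3 clock genes named with their values known. Each difference is given as libraries labelled Bmal1-/- relative to WT. Depth ran from 38529644 to 44096737 counts per library, and 15743 genes were tested. WT replicate 3 had the highest or the lowest level of all 7 libraries in 69.8% of those genes and in 7 of the 10 enzymes. Among the marker lists of the tissue, the libraries held RNA of neurons, astrocytes, oligodendrocytes, microglia and macrophages, while lymphocyte markers were near 0, with 3 of 10 tested and a summed level of at most 0.859 CPM in the labelled and 2.10 CPM in the WT libraries. Of 10 skeletal muscle markers 7 were called lower, and the 9 other than Pvalb summed to 5.74 to 7.39 CPM in the labelled against 54.5 to 71.4 CPM in the WT libraries. Pvalb, which neurons also express, had a log2 fold change of 0.38 (adjusted p = 0.165).

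By edgeR's quasi-likelihood test 0 of the 10 enzymes had an adjusted p under 0.05, where 1.57% of all genes did, 0.915% lower and 0.654% higher. Cd38 came nearest, with all 3 labelled libraries below all 4 WT libraries, and Nmnat2 was next, with the 3 labelled libraries above the 4 WT ones. These were also the 2 enzymes with an unadjusted p under 0.05, or 20% of 10 against 20.9% of all genes, and the 2 whose groups did not overlap, or 20% against 26.9% of all genes. By DESeq2 1 enzyme passed, Cd38, where 9.13% of genes did, and by limma-voom 0 passed, where 1.31% did. The median log2 fold change of the enzymes was 0.05, from -0.44 to 0.41, with 6 positive and 4 negative, against a median of -0.01 over all genes. All 10 were well counted, with 150 to 6155 counts in any library. The 95% interval of the log2 fold change held 0 for 8 enzymes and lay within 0.5 of 0 for 6 and within 1 of 0 for all 10.

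**Figure D1:**
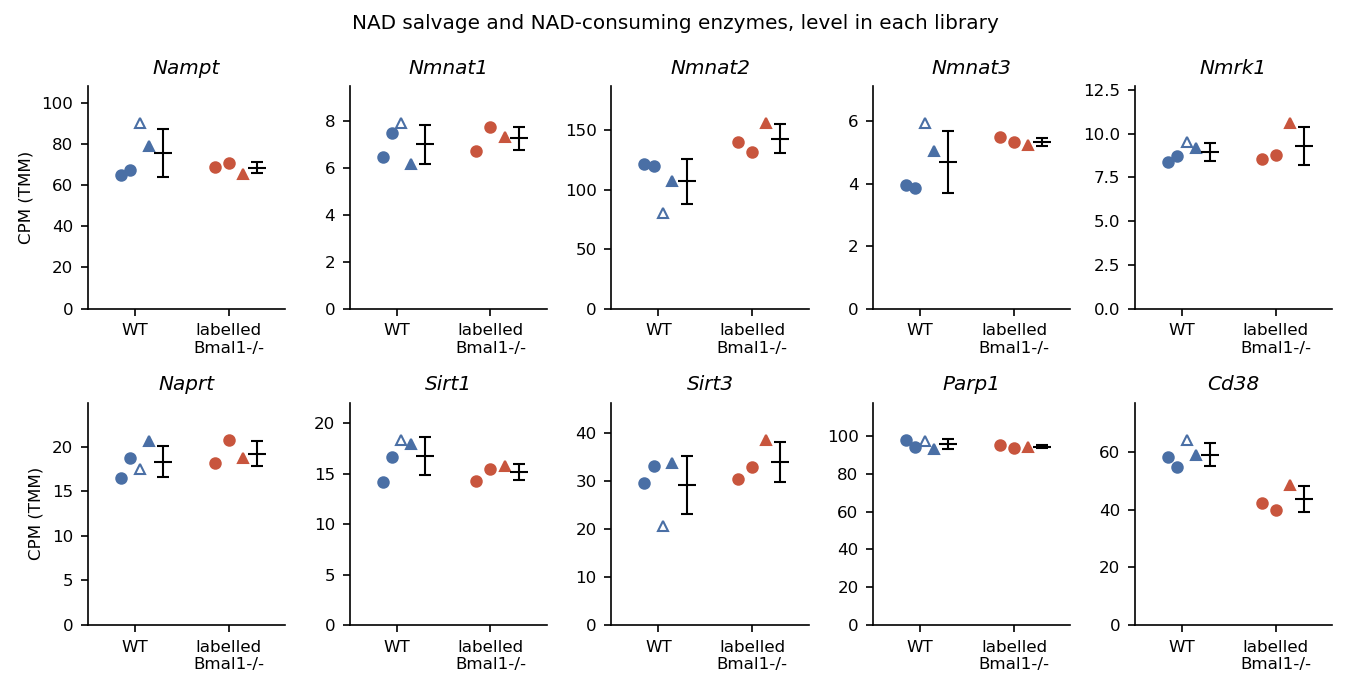
Level of each of the 10 enzymes in every library, in CPM with TMM normalization, from 0 (y axis), for WT (blue) and the libraries labelled Bmal1-/- (red). Circles are females, triangles males, the open triangle is WT replicate 3, and the black mark with its bar is the mean ± SD (n = 4 and 3). The groups stand apart for Nmnat2 (132 to 156 against 80.3 to 122 CPM) and Cd38 (40.0 to 48.6 against 55.0 to 64.4 CPM) and overlap in the other panels.

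Nampt, the rate-limiting enzyme of salvage (ENSMUSG00000020572, chr12:32819545-32853349), had 69.0, 70.9 and 65.5 CPM in the libraries labelled Bmal1-/- and 64.8, 67.4, 90.1 and 79.2 CPM in WT. The 3 labelled libraries lay inside the range of WT, where the 2 males stood above the 2 females. The means were 68.5 ± 2.76 (SD, n = 3) and 75.4 ± 11.6 CPM (SD, n = 4), and the log2 fold change was -0.14 (SE 0.12, 95% interval -0.42 to 0.14), with an adjusted p of 0.48. Without WT replicate 3, its highest library, the log2 fold change was -0.04. By sex it was 0.08 between females and -0.37 between males, where the labelled group held 1 male. In a fit of sex by genotype, in which that lone male is assumed to vary like the other mice, the smallest adjusted p of the 10 enzymes was 0.4 and 0 of all genes passed. At dpi 3, in tissue taken in the morning, a lower Nampt level in the libraries labelled Bmal1-/- was thus not detected. The interval allows a decrease of up to 0.42 on the log2 scale, and other times of day were not measured.

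The NMNAT enzymes, which join NMN with ATP into NAD, differed from each other in level and in what they showed. Nmnat2, the axonal form (ENSMUSG00000042751, chr1:152954993-153119261), had 140, 132 and 156 CPM in the libraries labelled Bmal1-/- and 122, 120, 80.3 and 107 CPM in WT. Each labelled library was above each WT library, with a gap of 8.81% of the WT mean between the nearest libraries, and WT replicate 3 was the lowest by far. The means were 143 ± 12.5 (SD, n = 3) and 107 ± 19.2 CPM (SD, n = 4), 1.33 times the WT level. The log2 fold change was 0.41 (SE 0.15, 95% interval 0.06 to 0.76), with an unadjusted p of 0.0265 and an adjusted p of 0.194 by edgeR's quasi-likelihood test. It was 0.29 without WT replicate 3, and 0.17 between females against 0.75 between males, the sex of that library.

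Neuron markers moved with Nmnat2. All 13 markers of neurons had a positive log2 fold change, and 0 were called by edgeR's test. In 6 of them the groups did not overlap, or 46.2% against 26.9% of all genes. By the same test 3 had an unadjusted p under 0.05, or 23.1% against 20.9% of all genes. The summed level of the 13 markers was 7284, 7220 and 8551 CPM in the libraries labelled Bmal1-/- and 6552, 7154, 3264 and 5284 CPM in WT. The lowest sum was again in WT replicate 3, and no marker was at 0 in any library. The part of neuronal RNA in the Nmnat2 difference was not tested. In bulk tissue fewer cells of a type and less RNA per cell cannot be told apart, here and for each gene that follows.

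Nmnat1, the nuclear form (ENSMUSG00000028992, chr4:149467572-149485202), had 6.71, 7.71 and 7.31 CPM in the labelled libraries and 6.43, 7.48, 7.89 and 6.15 CPM in WT, so that the groups overlapped throughout. Its log2 fold change was 0.05 (SE 0.12, 95% interval -0.24 to 0.34, adjusted p = 0.813). Nmnat3, the mitochondrial form (ENSMUSG00000032456, chr9:98287435-98420438), had 5.49, 5.32 and 5.23 CPM in the labelled libraries and 3.95, 3.86, 5.94 and 5.04 CPM in WT. Here the WT females were low and the WT males lay on either side of the labelled libraries, and the log2 fold change was 0.19 (SE 0.17, 95% interval -0.22 to 0.59, adjusted p = 0.514), which was 0.32 without WT replicate 3, 0.11 without replicate 1 and 0.10 without replicate 2. Set side by side per exon length, as CPM per kilobase, Nmnat2 made up 78.6% to 88.7% of the NMNAT level in every library, Nmnat1 7.90% to 14.7% and Nmnat3 3.21% to 6.72%.

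The other entries to salvage use nicotinamide riboside and nicotinic acid. Nmrk1, the riboside kinase (ENSMUSG00000037847, chr19:18631950-18652428), had 8.57, 8.75 and 10.6 CPM in the labelled and 8.37, 8.69, 9.51 and 9.20 CPM in the WT libraries, with a log2 fold change of 0.05 (SE 0.11, 95% interval -0.20 to 0.31, adjusted p = 0.768). Naprt, which starts the route from nicotinic acid (ENSMUSG00000022574, chr15:75890956-75894481), had 18.2, 20.8 and 18.7 CPM in the labelled and 16.5, 18.7, 17.5 and 20.6 CPM in the WT libraries, with a log2 fold change of 0.07 (SE 0.10, 95% interval -0.16 to 0.30, adjusted p = 0.66). Both enzymes overlapped between the groups, and 277 bases of Naprt exon are shared with Eef1d on the same strand, where the count cannot tell the genes apart. Nmrk2, the muscle form of the riboside kinase, had 3 to 15 counts per library, too few to compare (adjusted p = 0.805).

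**Figure D2:**
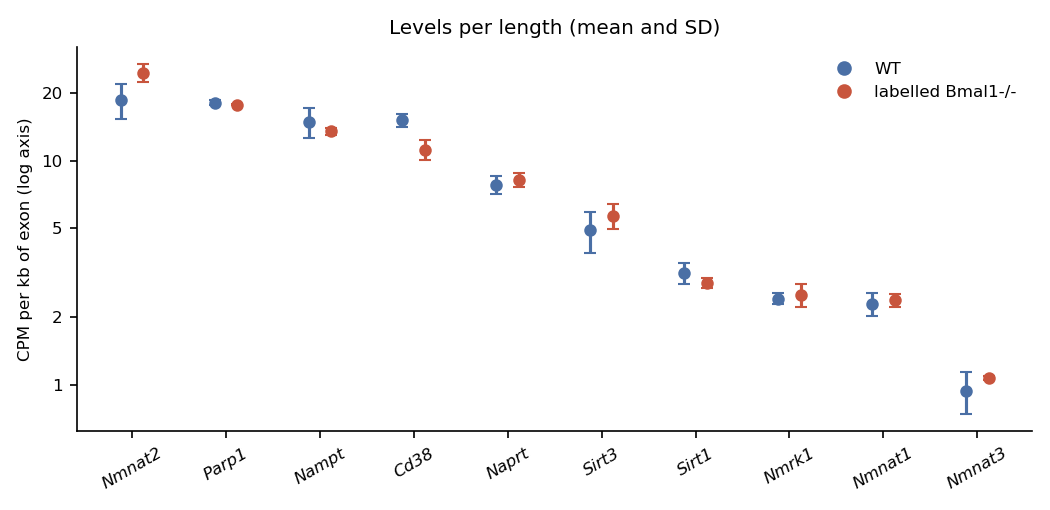
Mean level per exon length of the 10 enzymes (CPM per kilobase of exon, log axis) in WT (blue, n = 4) and in the libraries labelled Bmal1-/- (red, n = 3), with bars of 1 SD. Nmnat2, Parp1, Nampt and Cd38 form the upper group, from 11.2 to 24.7, and Nmnat3 is lowest, at 0.939 in WT.

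In levels per exon length the order in WT was Nmnat2 (18.6 ± 3.32 CPM per kilobase), Parp1 (18.1 ± 0.476), Cd38 (15.2 ± 1.01), Nampt (14.9 ± 2.30), Naprt (7.81 ± 0.748), Sirt3 (4.90 ± 1.02), Sirt1 (3.15 ± 0.352), Nmrk1 (2.42 ± 0.139), Nmnat1 (2.30 ± 0.273) and Nmnat3 (0.939 ± 0.197), each as mean ± SD over 4 libraries. Nmnat2 and Parp1, Cd38 and Nampt, and Nmrk1 and Nmnat1 were neighbours that lay within 1 SD of each other. In the libraries labelled Bmal1-/- Nmnat2 was first at 24.7 ± 2.17 and Cd38, at 11.2 ± 1.15, stood after Nampt, at 13.5 ± 0.547 (SD, n = 3). The order of the remaining enzymes was the same in both groups.

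The sirtuins remove acyl groups from proteins and use up NAD in doing so. Sirt1, the nuclear deacetylase tied to the clock and the gene with 2 E-boxes in the window shown above (ENSMUSG00000020063, chr10:63319005-63381704), had 14.3, 15.5 and 15.8 CPM in the libraries labelled Bmal1-/- and 14.2, 16.7, 18.4 and 18 CPM in WT. The labelled libraries lay within the WT range, below 3 of the 4 WT libraries, and the log2 fold change was -0.15 (SE 0.11, 95% interval -0.39 to 0.10, adjusted p = 0.415). Sirt3, the main mitochondrial deacetylase (ENSMUSG00000025486, chr7:140863666-140882309), had 30.3, 32.8 and 38.6 CPM in the labelled and 29.5, 33.0, 20.6 and 33.8 CPM in the WT libraries. WT replicate 3 was again the lowest and the groups overlapped, with a log2 fold change of 0.21 (SE 0.18, 95% interval -0.20 to 0.63, adjusted p = 0.469), which was 0.08 without that library and 0.11 without the third labelled one. Sirt3 overlaps exons of Ric8a over 418 bases and of Psmd13 over 342 bases on the other strand, and it lies 27.5 Mb from Arntl on the same chromosome.

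The other sirtuins were not called either. Of the other sirtuins tested, 0 of 5 were called, 0 had an unadjusted p under 0.05, and the log2 fold changes ran from -0.23 for Sirt7, the nucleolar sirtuin (adjusted p = 0.266, and -0.13 without WT replicate 3), to 0.12 for the mitochondrial Sirt5 (adjusted p = 0.516). Sirt2, the cytosolic sirtuin that is abundant in oligodendrocytes, held 66.6% to 72.2% of the sirtuin level per exon length in every library, against 2.78% to 3.56% for Sirt1 and 3.55% to 7.07% for Sirt3. Its log2 fold change was 0.05 (SE 0.10, adjusted p = 0.766), and that of Sirt6 was within 0.01 of 0 (adjusted p = 0.992).

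Parp1, the DNA-break sensor that makes most of the cell's poly(ADP-ribose) (ENSMUSG00000026496, chr1:180568924-180601254), was the most even of the 10 enzymes. It had 95.2, 93.6 and 94.4 CPM in the libraries labelled Bmal1-/- and 98.1, 94.1, 97.6 and 93.1 CPM in WT. The means were 94.4 ± 0.802 (SD, n = 3) and 95.7 ± 2.52 CPM (SD, n = 4), and the log2 fold change was -0.02 (SE 0.05, 95% interval -0.13 to 0.09, adjusted p = 0.818), the narrowest interval among the enzymes. Markers of dividing cells did not share this evenness, since all 14 were lower with no overlap of the groups (26.9% of all genes had none). By edgeR 0 of these markers were called, and all 14 had an unadjusted p under 0.05, against 20.9% of all genes. Their summed level was 442, 431 and 339 CPM in the labelled libraries and 671, 560, 966 and 695 CPM in WT, with a median log2 fold change of -0.89.

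Cd38, the NAD glycohydrolase (ENSMUSG00000029084, chr5:43868553-43912375), had 42.4, 40.0 and 48.6 CPM in the libraries labelled Bmal1-/- and 58.4, 55.0, 64.4 and 58.9 CPM in WT, from 1667, 1724 and 1917 counts against 2289, 2138, 2581 and 2336 counts. Each labelled library was below each WT library, with a gap of 10.7% of the WT mean between the nearest ones. The means were 43.7 ± 4.46 (SD, n = 3) and 59.2 ± 3.92 CPM (SD, n = 4), so that the labelled group stood at 0.738 times the WT level. The log2 fold change was -0.44 (SE 0.09, 95% interval -0.64 to -0.23), with an unadjusted p of 0.00132 and an adjusted p of 0.0634 by edgeR's quasi-likelihood test, which misses the threshold. DESeq2 gave -0.43 with an adjusted p of 0.00159, and edgeR's test without WT replicate 3 gave -0.40 with an adjusted p of 0.042, in a fit that called 4.66% of all genes. Across all 15 alternatives the log2 fold change ran from -0.53 to -0.38 and the adjusted p from 0.00159 to 0.297, with 2 of the 15 past the threshold. The difference was -0.46 between females and -0.34 between males.

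**Figure D3:**
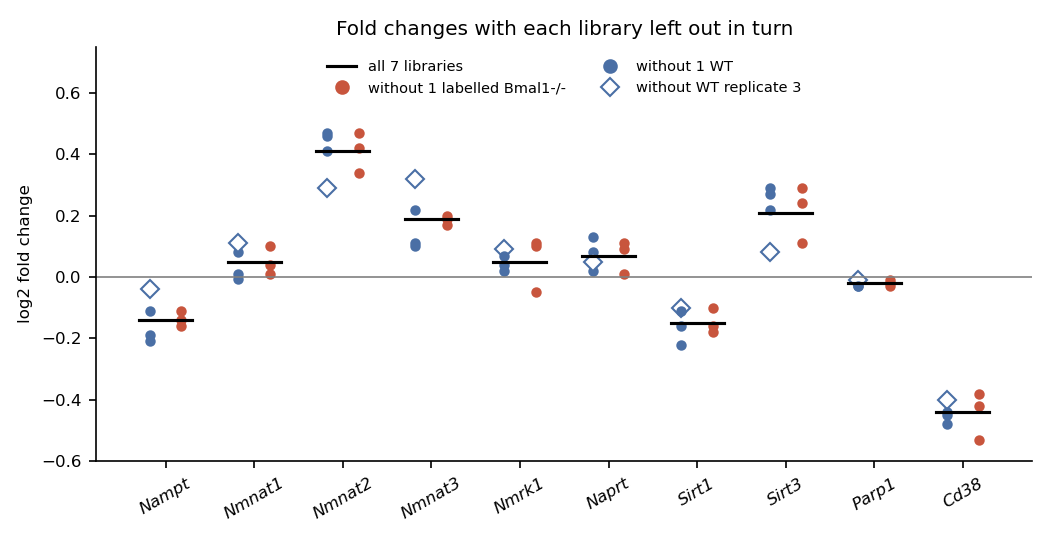
Log2 fold change (labelled Bmal1-/- over WT, y axis) of each of the 10 enzymes with all 7 libraries (black line) and with each library left out in turn, a labelled one (red) or a WT one (blue, the open diamond without WT replicate 3). Cd38 stays between -0.53 and -0.38 and Nmnat2 between 0.29 and 0.47, while Nmnat1 and Nmrk1 cross 0.

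Several lists of cells that can carry CD38 were read beside it. Endothelial markers were lower with Cd38, with 10 of 10 negative log2 fold changes and 1 called. In 7 the groups did not overlap, or 70.0% against 26.9% of all genes. The 10 markers summed to 550, 478 and 504 CPM in the labelled libraries against 650, 572, 963 and 607 CPM in WT. Microglia markers had 8 of 10 negative log2 fold changes, a median of -0.15, 0 without overlap and 0 called, and summed to 1359 to 1612 CPM in the labelled and 1480 to 1911 CPM in the WT libraries. Macrophage markers had 9 of 12 negative, a median of -0.31 and 0 called. In 3 the groups did not overlap, all lower, or 25.0% against 26.9% of all genes. The 12 markers summed to 7542 to 8907 CPM against 5971 to 13915 CPM, mostly Spp1 and Lyz2. Astrocyte markers were mixed, with 5 positive and 5 negative log2 fold changes, a median of 0.01 and 0 of 10 called, among them Gfap at 0.42 (adjusted p = 0.27) and Aldh1l1 at -0.47 (adjusted p = 0.133). Their summed level, 16476 to 18969 CPM against 11172 to 15736 CPM, is mostly Gfap. The part of any of these cells in the Cd38 difference was not tested.

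**Figure D4:**
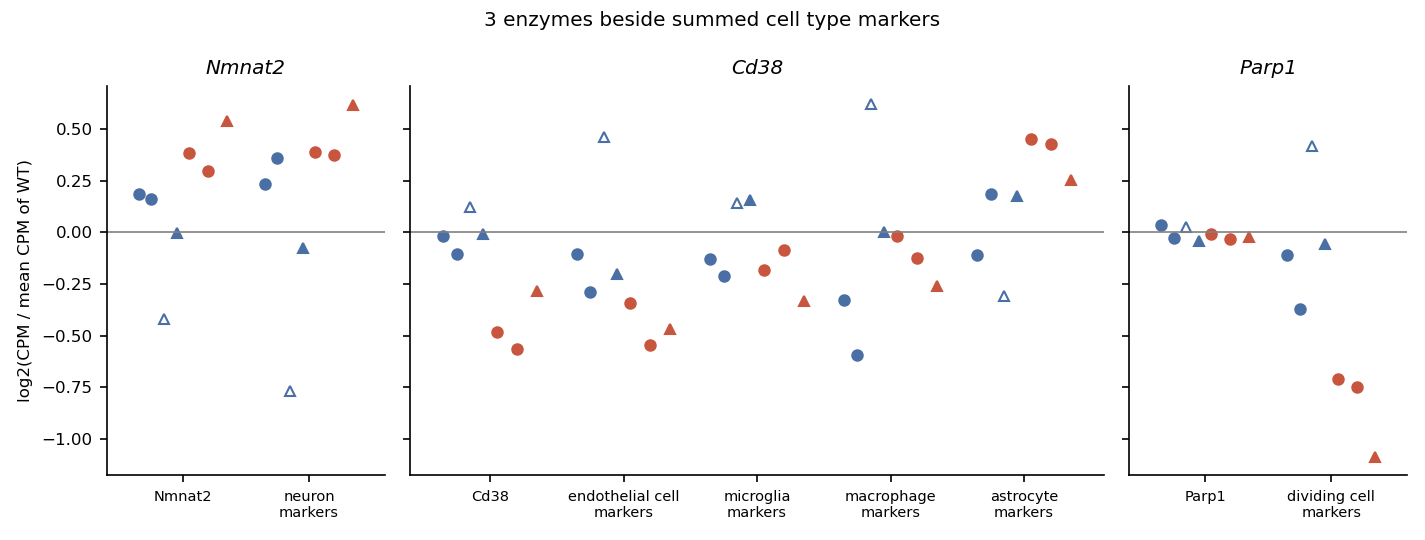
Nmnat2, Cd38 and Parp1 beside summed levels of cell type markers, each as log2 of the CPM over the WT mean (y axis), for WT (blue) and the libraries labelled Bmal1-/- (red), with circles for females, triangles for males and the open triangle for WT replicate 3. Neuron markers are lowest in WT replicate 3, as Nmnat2 is, endothelial markers are lower in each labelled library as Cd38 is, and Parp1 is level where markers of dividing cells differ.

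CD38 shares its activity with BST1, its neighbour and paralog on chromosome 5, and with SARM1, the NADase that triggers axon degeneration and that NMNAT2 holds in check. Bst1 had 13.8, 11.2 and 10 CPM in the labelled and 12.1, 11.3, 23.1 and 13.8 CPM in the WT libraries, with a log2 fold change of -0.37 (SE 0.27, adjusted p = 0.413) that was -0.08 without WT replicate 3. Sarm1 had 25.3, 24.6 and 27.3 CPM in the labelled and 25.4, 25.0, 13.6 and 19.6 CPM in the WT libraries, with a log2 fold change of 0.30 (SE 0.21, adjusted p = 0.392) that was 0.14 without it. Both thus rested largely on WT replicate 3, unlike Cd38. Of the 3 genes' summed level per exon length, Cd38 made up 55.7% to 61.4% in the labelled and 63.8% to 66.5% in the WT libraries. Sarm1 made up 23.0% to 24.3% and 9.28% to 20.2%. These shares did not overlap and were not tested. They are parts of the same sum, so a lower Cd38 raises the share of Sarm1, whose CPM overlapped between the groups.

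The wider set of NAD genes, chosen by role as transport, synthesis from tryptophan, clearance, the further sirtuins and PARPs, ADP-ribose removal and NADP upkeep, held 71 genes with the 10 enzymes included, of which 67 were tested. By edgeR's test 1 of them was called, Slc5a8, a monocarboxylate transporter that also carries nicotinic acid, which rose from 13, 12, 14 and 19 counts in WT to 354, 411 and 307 counts in the labelled libraries (log2 fold change 4.57, SE 0.18, adjusted p = 0.000293). DESeq2 called 7, in a fit that called 9.13% of all genes. These were Slc5a8, Cd38, Cyp2e1, Parp16, Parp10, Nadk2 and Slc29a1. The wider set was drawn up with earlier results of these data known, so the call of Slc5a8 is not an independent result. Cyp2e1, Kmo, Ido2, Parp16, Parp10, Nadk2 and Slc29a1 were named because their groups did not overlap. Their separation is therefore not an independent result either. Of the 67 genes 14 had an unadjusted p under 0.05, or 20.9%, which is the share over all genes, and in 18 the groups did not overlap, or 26.9%, again the share over all genes. Their median log2 fold change was -0.01, as over all genes.

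**Figure D5:**
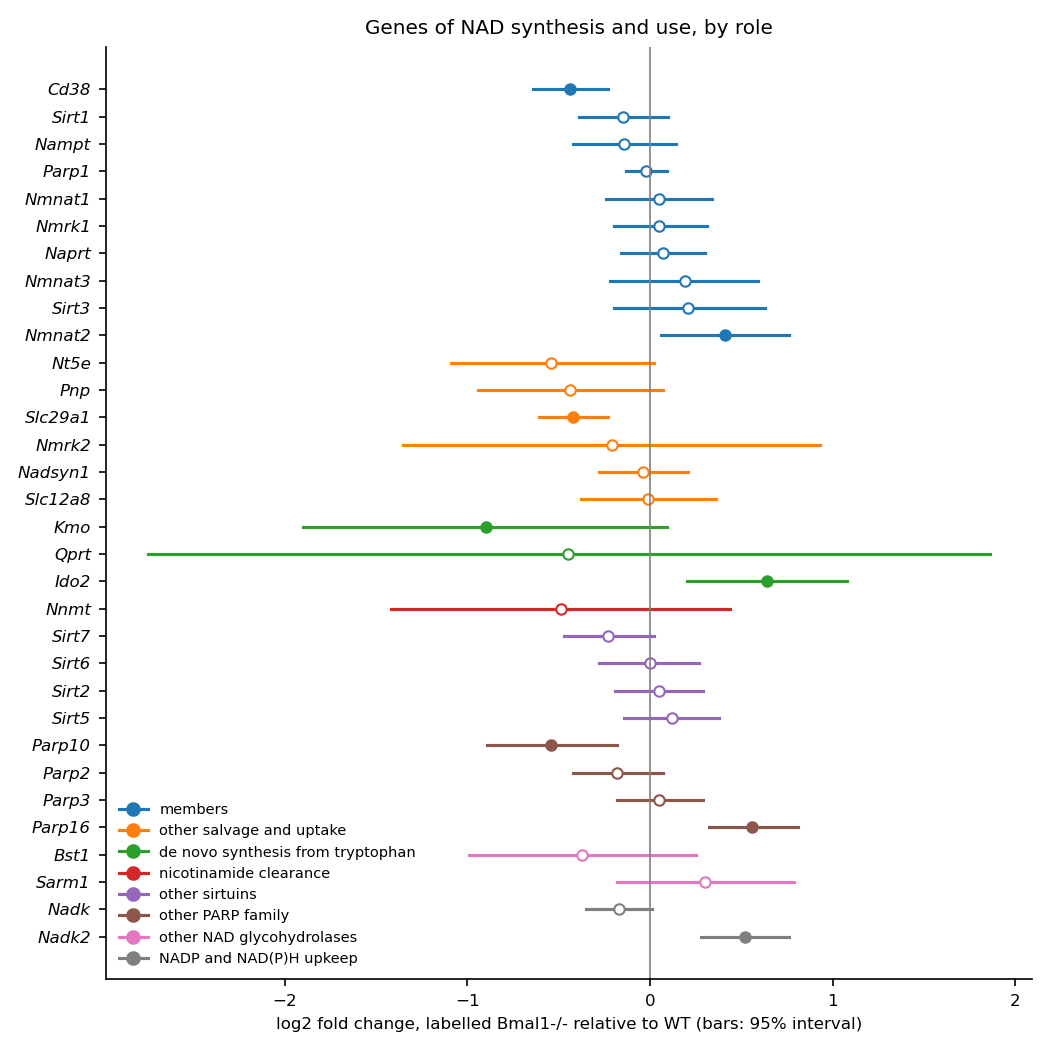
Log2 fold change (labelled Bmal1-/- over WT, x axis) with its 95% interval for the 10 enzymes and 22 further named genes, colored by role, with filled points where the groups do not overlap. Slc5a8 (4.57) and Cyp2e1 (-3.99) lie outside the range drawn. The intervals of Cd38, Nmnat2, Slc29a1, Ido2, Parp10, Parp16 and Nadk2 do not hold 0.

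Around Nampt, the genes that feed or drain the salvage route were not called by edgeR apart from Slc5a8. Nt5e (CD73), the ectoenzyme that turns NMN into the riboside, had 12, 17.2 and 11.1 CPM in the labelled and 26.3, 20.8, 15.1 and 16.1 CPM in the WT libraries (log2 fold change -0.54, SE 0.24, adjusted p = 0.249), which was -0.36 without WT replicate 1. Pnp, which splits the riboside into nicotinamide, had a log2 fold change of -0.44 (SE 0.22, adjusted p = 0.279), or -0.21 without WT replicate 3. Slc29a1, an equilibrative nucleoside transporter that can carry the riboside, did separate the groups, with 32.7, 30.4 and 28.9 CPM against 40.8, 37.7, 45.0 and 40.6 CPM (log2 fold change -0.42, SE 0.08, adjusted p = 0.0557), short of the threshold by edgeR and past it by DESeq2 (adjusted p = 0.000518). Slc12a8, proposed as an NMN transporter, and Nadsyn1, the NAD synthetase of the nicotinic acid route, had log2 fold changes of -0.01 (adjusted p = 0.983) and -0.04 (adjusted p = 0.853).

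Nicotinamide is cleared by methylation through NNMT and by oxidation through CYP2E1. Nnmt had 1.5, 3.37 and 0.939 CPM in the labelled and 2.45, 3.19, 2.80 and 2.47 CPM in the WT libraries (log2 fold change -0.49, SE 0.40, adjusted p = 0.461), which was -1.16 without the second and -0.16 without the third labelled library. Cyp2e1 had 0, 3 and 2 counts in the labelled and 42, 32, 9 and 27 counts in the WT libraries, 5 against 110 counts in all, or 17.0 times more in WT per TMM-scaled library size (95% interval 7.06 to 53.3, counting error only), with an adjusted p of 0.0612 by edgeR and 0.000304 by DESeq2. Cyp2e1 lies 27.4 Mb from Arntl on chromosome 7.

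Synthesis from tryptophan was thinly expressed, and Ido1, Tdo2 and Acmsd were below the filter. Qprt, the enzyme that joins this route to NAD, had 0.788, 8.43 and 0.305 CPM in the labelled and 4.97, 7.20, 2.30 and 2.93 CPM in the WT libraries (log2 fold change -0.45, SE 0.99, adjusted p = 0.795), which was -2.98 without the second and 0.09 without the third labelled library. Its one high labelled library, the second, was also the highest of the 7 in summed fibroblast markers, at 2411 CPM against 513 and 430 CPM in the other labelled and 1272 to 2032 CPM in the WT libraries. Ido2 was higher in each labelled library, at 1.63, 2.02 and 2.16 CPM against 1.17, 1.29, 1.02 and 1.49 CPM (log2 fold change 0.64, SE 0.19, adjusted p = 0.143). Kmo, the microglial and macrophage hydroxylase of kynurenine, was lower in each, at 0.585, 0.580 and 0.228 CPM against 0.689, 0.668, 1.42 and 0.706 CPM (log2 fold change -0.90, SE 0.43, adjusted p = 0.268), which was -0.56 without WT replicate 3 and -0.58 without the third labelled library.

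The other PARP family genes were 14, with 0 called by edgeR's test and 5 with an unadjusted p under 0.05, 1 higher and 4 lower, or 35.7% against 20.9% of all genes. Parp16, a mono-ADP-ribosyltransferase of the endoplasmic reticulum, was the higher one, with 10, 10.3 and 8.70 CPM in the labelled and 6.25, 7.02, 6.82 and 6.13 CPM in the WT libraries (log2 fold change 0.56, SE 0.10, adjusted p = 0.0536). The lower 4 were Parp9 (log2 fold change -0.46, adjusted p = 0.173), Parp10 (-0.54, adjusted p = 0.133), Parp12 (-0.32, adjusted p = 0.173) and Parp14 (-0.47, adjusted p = 0.183). The groups overlapped for Parp9 and Parp14, and Parp10 shares exon sequence with Plec. Parp9, Parp12 and Parp14 were named after their values were seen. Parp2 and Parp3, the DNA-repair PARPs nearest to Parp1, had log2 fold changes of -0.18 (adjusted p = 0.345, and -0.09 without WT replicate 3) and 0.05 (adjusted p = 0.751). Of the 8 genes of ADP-ribose removal tested, 0 were called by edgeR and 0 had an unadjusted p under 0.05, against 1.57% and 20.9% of all genes. In 3 of them the groups did not overlap, 2 higher and 1 lower, or 37.5% against 26.9% of all genes.

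NADP is made from NAD by the kinases NADK, in the cytosol, and NADK2, in mitochondria. Nadk2 was higher in each labelled library, at 117, 117 and 114 CPM against 77.2, 88.4, 68.1 and 90.6 CPM (log2 fold change 0.52, SE 0.10, adjusted p = 0.0607), while Nadk had a log2 fold change of -0.17 (SE 0.08, adjusted p = 0.256). Nnt, the mitochondrial transhydrogenase, named after its values were seen, was barely counted in either group, at means of 0.489 and 0.494 CPM (log2 fold change -0.01, adjusted p = 0.992). C57BL/6J mice are known to carry a deletion in this gene. The Nnt exons also overlap those of another gene entry with the same symbol on the same strand, where the count cannot tell the entries apart. Whether the deletion or this overlap accounts for the low Nnt count was not tested. Slc29a1, Parp16, Nadk2, Cyp2e1 and Cd38 were 5 genes of the set that missed the threshold with all libraries and passed it without WT replicate 3. The fit without that library called 4.66% of all genes, against 1.57% with all libraries.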

How the data were processed

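RNASeq of contused spinal cord was available from 3 mice labelled Arntl Knockout and 4 WT mice. Stranded poly-A libraries were prepared by the authors, who aligned the reads to GRCm38 (mm10) with Tophat2 and took raw counts per gene from HTSeq 0.10.0. Those counts are the deposited values, with no normalization applied. The annotation release and strand setting of the counting are not given in the sources used here. Symbols and coordinates come from GENCODE M21 (GRCm38), in which 21939 of the 21965 identifiers had a symbol, and where 2 identifiers shared one the row with the higher total was used.

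Genes passing edgeR's filterByExpr on genotype (15743) were scaled by TMM, and genotype was tested by quasi-likelihood in edgeR 4.0.16 (R 4.3.3, limma 3.58.1), with Benjamini-Hochberg adjustment over all genes tested and a threshold of 0.05. The script was tested on simulated data first. CPM uses TMM library sizes, and levels per length divide it by the union of GENCODE exons. SD is between mice, which limits the precision at these depths (common dispersion 0.0342). P-values set the difference between the genotypes against the spread between mice, which edgeR estimates with information shared over all genes. Intervals of pooled counts cover counting error only. Alternatives were DESeq2 1.42.0 (the study's tool), limma-voom, RLE and upper-quartile scaling, filters at 1 count in all and at a mean of 10 counts, a sex covariate, the replicate number as a block, and leaving out each library.

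Apart from the 10 enzymes, set by gene symbol, the genes and lists were chosen with earlier results of these data known. Named were Arntl, the 10 enzymes, 16 paralogs and route partners, and of the rest of the set genes past the threshold and then those without overlap of the groups by size of change, up to 8 in all. Motif windows are RefSeq (GRCm38.p6).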

Additional observations from a re-analysis of the deposited data

Results flagged for a closer look

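Kmo stood at 1.42 CPM in WT replicate 3, while the other 3 WT libraries lay between 0.668 and 0.706 CPM, so that the gap to the nearest library took up 0.95 of the range of the group, above Dixon's critical value of 0.829 for 4 samples. Chance alone marks about 1 in 20 groups in this way.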

How the results depend on the processing

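Of the 10 enzymes 1, Cd38, was called by DESeq2 and 1, Cd38, without WT replicate 3, and 0 to 1 with each library left out. Of the wider set, where 1 gene was called, DESeq2 called 7, the replicate block 0, and fits with a library left out 1 to 6, the 6 being without WT replicate 3. Over all genes, where 247 were called, DESeq2 called 1495, the block 0, and fits with a library left out 57 to 730, the 730 being without WT replicate 3. The median log2 fold change of the wider set was -0.03 with upper-quartile normalization and -0.03 to 0.01 with a library left out. Differences near 0 changed sign: Nmnat1 to -0.0021 and Slc12a8 to 0.03 under the block, and Sirt6 to 0.0026 by DESeq2, 0.0024 with RLE, 0.00035 without the filter and 0.004 with sex. With a library left out the ranges were -0.0048 to 0.11 for Nmnat1, -0.05 to 0.11 for Nmrk1, -0.81 to 0.23 for Nmrk2, -0.09 to 0.02 for Nadsyn1, -2.98 to 0.09 for Qprt, -0.09 to 0.07 for Slc12a8, -0.0014 to 0.11 for Sirt2, -0.12 to 0.1 for Sirt6 and -0.0044 to 0.15 for Parp3. The cause of these moves was not tested. Deviations of same-numbered libraries correlated at -0.174, 0.183 and -0.295, and those of differently numbered ones at -0.286 to 0.335. With so few libraries this cannot show whether the replicate numbers pair the mice. Under the block Arntl (adjusted p = 0.226) and Slc5a8 (adjusted p = 0.0693) lost their calls. Of 150 values of the 10 enzymes over the alternatives, 145 kept their direction and side of the threshold. Nmrk2 and Cyp2e1 fell below the filter in some fits and have no value there.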
